A study of Mus musculus with 11 samples.

Results

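The genes described here are 33 genes of sterol and fatty acid synthesis, chosen by name as targets or controllers of the sterol regulatory element-binding proteins (SREBPs), out of 36529 genes in the count tables. They comprised 7 enzymes of the mevalonate pathway, 11 enzymes that carry its product from squalene to cholesterol, 5 genes for the SREBP factors and their control, 1 sterol carrier, 4 genes of fatty acid synthesis and 5 of fatty acid elongation and desaturation. The rule itself uses gene names and no threshold on a measured value. All 33 symbols were found, and 31 passed the filter on low counts in each of the 4 comparisons. Those that did not were Insig1, which had 0 counts in all 11 samples, and Fads2, which had 0 to 2 counts in any sample.

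The RNA came from BV2 cells, an immortalized microglial line from C57BL/6 mice, and the study asked which genes respond to amino-terminal fragments of human apolipoprotein E. The fragments, nApoE4 and nApoE3, each cover residues 1 to 151, carry a histidine tag and differ by a single amino acid. The ApoE4 group held 3 samples given the nApoE4 fragment at 25 µg/ml for 5 h, with 3 control samples of their own (ControlA). The ApoE3 group held 2 samples given the nApoE3 fragment at the same concentration and time, with 3 controls of their own (ControlB). Both sets of controls are named as untreated, while the treatment notes give a phosphate-buffered saline vehicle and the methods give conditioned medium, so which of these the controls received is not known here. Each fragment was given in an experiment with its own controls and depth, so fragment and experiment cannot be told apart. The methods call the measurements independent, but neither they nor the labels say that the samples of a group came from separate cultures, so the p-values below measure only the spread between these samples, which may be technical.

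Total counts ran from 39732710 to 44162511 per sample in ControlA and ApoE4, and from 55809688 to 69768666 in ControlB and ApoE3. Samples of one group correlated across genes with r between 0.992 and 0.996. The library ControlA 2 stood apart from its own group for several members, and its effect on their calls is given below. Of 16 microglia and macrophage markers, 5 stayed under 1 CPM (counts-per-million, a gene's counts scaled to the size of its library) in every sample (Aif1, Cx3cr1, P2ry12, Sall1 and Siglech), and P2ry12 had no count in any of the 11. Another of them, Trem2, named after its values were seen, read 60.5 CPM in ControlA 1 and at most 5.29 CPM in the other 10 samples. The summed level of the list was 3835 to 4239 CPM in ControlA, 4077 to 4155 in ApoE4, 2814 to 2934 in ControlB and 3471 to 3490.2 in ApoE3. Lists of 4 markers each for neurons, astrocytes, endothelial cells and fibroblasts summed to at most 7.02 CPM in any sample, and that for oligodendrocytes to at most 25.4 CPM.

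Cells make cholesterol from acetyl-CoA through mevalonate, isoprenoids, squalene and lanosterol, and they make palmitate from the same acetyl-CoA through malonyl-CoA. SREBP precursors sit in the membrane of the endoplasmic reticulum with their escort Scap. When membrane sterol falls, Scap carries them to the Golgi, where proteases free the active factor. Insig proteins hold the complex back when sterol is abundant. The product of Srebf2 mainly drives sterol genes and that of Srebf1 mainly fatty acid genes. In macrophage-lineage cells, lipid synthesis is known to be remodelled during innate immune activation.

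Promoter windows, from 250 bases before to 50 bases after an annotated transcript start, were available from RefSeq (GRCm38.p6) for 26 of the 33 members. They were searched on both strands for 4 short motifs. The core TCACNCCAC, a form of the sterol regulatory element that SREBPs bind, was present in 1 of the 26 members (3.85%), against 1.44% of all 27025 genes with a window and 1.38% of the 10356 of these that were tested. The NF-Y box CCAAT was present in 21 (80.8%), against 41.1% of all genes with a window and 42.5% of the tested ones. GGGCGG, a box bound by Sp1, was in 22 (84.6%), against 38.2% and 64.8%. The E-box CACGTG was in 5 (19.2%), against 8.09% and 11.6%. A match is a run of letters and not a tested binding site.

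The Hmgcs1 promoter is shown because it was the one member window with the core sequence, in capitals, from 183 to 84 bases before the start at chr13:119690168-119690267 on the plus strand. The remaining 3 genes shown are those that rose over 2-fold with the nApoE4 fragment and had a window. Each is given for the 100 bases before the start, with the CCAAT box, or its reverse complement ATTGG, in capitals. Hsd17b7 lies at chr1:169969206-169969305 on the minus strand, Idi1 at chr13:8885506-8885605 on the plus strand and Msmo1 at chr8:64733579-64733678 on the minus strand. All are written in the direction of transcription. The annotated span of Hsd17b7 reaches to 169969242, so part of its stretch lies within the gene, before an inner transcript start.
Hmgcs1: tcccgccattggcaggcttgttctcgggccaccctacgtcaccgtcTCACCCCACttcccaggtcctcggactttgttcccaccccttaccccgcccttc
Hsd17b7: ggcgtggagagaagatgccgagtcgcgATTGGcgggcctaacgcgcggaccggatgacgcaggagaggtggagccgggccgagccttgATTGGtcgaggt
Idi1: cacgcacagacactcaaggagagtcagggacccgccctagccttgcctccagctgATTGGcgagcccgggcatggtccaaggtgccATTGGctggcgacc
Msmo1: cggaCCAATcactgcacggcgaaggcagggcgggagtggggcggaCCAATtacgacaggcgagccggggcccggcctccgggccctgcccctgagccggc
Each of these last 3 genes carried 2 such boxes within its 100 bases.

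Treatment with the nApoE4 fragment was accompanied by higher mRNA for nearly all sterol enzymes among the members. mRNA was lower for the 4 tested members that elongate or desaturate fatty acids. Of the 31 members tested, 19 rose, 6 fell and 6 did not pass an adjusted p of 0.05 (edgeR quasi-likelihood test), where 57.2% of all 14240 genes tested were called in this comparison, 28.6% higher and 28.6% lower. The median log2 fold change of the members was 0.43, and that of all genes was 0.0013. Among the 18 sterol enzymes, 16 rose, 1 fell and 1 did not pass, with a median of 0.78. Of the 8 fatty acid enzymes tested, 1 rose, 4 fell and 3 did not pass. Over 2-fold, 4 members rose and 2 fell (Scd2 and the low-count Scd1), against 10.2% and 7.46% of all genes. As the samples are bulk RNA, fewer cells of a kind and less RNA per cell cannot be told apart.

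With the nApoE3 fragment the sterol enzymes moved in both directions and their median change was smaller. Of the 31 members, 14 rose, 11 fell and 6 did not pass, where 67.7% of 14817 genes were called, 33.1% higher and 34.6% lower. The members' median was 0.050, against -0.0026 for all genes. Of the 18 sterol enzymes 10 rose, 4 fell and 4 did not pass, with a median of 0.078, and of the 8 fatty acid enzymes 2 rose, 5 fell and 1 did not pass. Over 2-fold, 1 member rose and 2 fell (Scd2 and the low-count Scd1), against 9.6% and 6.57% of all genes. Many of these changes were small, and with scaling to library totals alone, which shifted the median of all genes to -0.13, the members split into 6 higher and 17 lower, with Cyp51, Fasn, Fdps, Mvd, Sc5d, Sqle and Srebf2 no longer called. In 1 fit of all 11 samples 9 members rose, and Acaca, Cyp51, Fasn, Fdps, Hmgcs1 and Sqle no longer passed. With library totals all genes split into 3595 higher and 6783 lower, instead of 4907 and 5127. In the nApoE4 comparison the same scaling left the members at 19 higher and 6 lower, while all genes split into 3316 higher and 4993 lower instead of 4067 and 4078.

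Of the 19 members that rose with nApoE4, 13 also rose with nApoE3, out of the 14 that rose there. A further 5 fell with both fragments (Srebf1, Elovl6, Scd1, Scd2 and Fads1), and 3 rose with nApoE4 and fell with nApoE3 (Acat2, Dhcr7 and Tm7sf2). Of these, Scd1 had few counts and passed the filter on low counts mainly through its controls. Among the 13750 genes tested in both comparisons, 2925 rose in both, 3066 fell in both and 502 moved in opposite directions. The 2 fits differed in spread between samples. The coefficient of variation that edgeR fitted in common to all genes was 0.084 with nApoE4 and 0.026 with nApoE3. Smaller changes could therefore be called with nApoE3, such as Hmgcs1 at log2 0.06, while Scap at 0.20 did not pass with nApoE4.

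**Figure D1:**
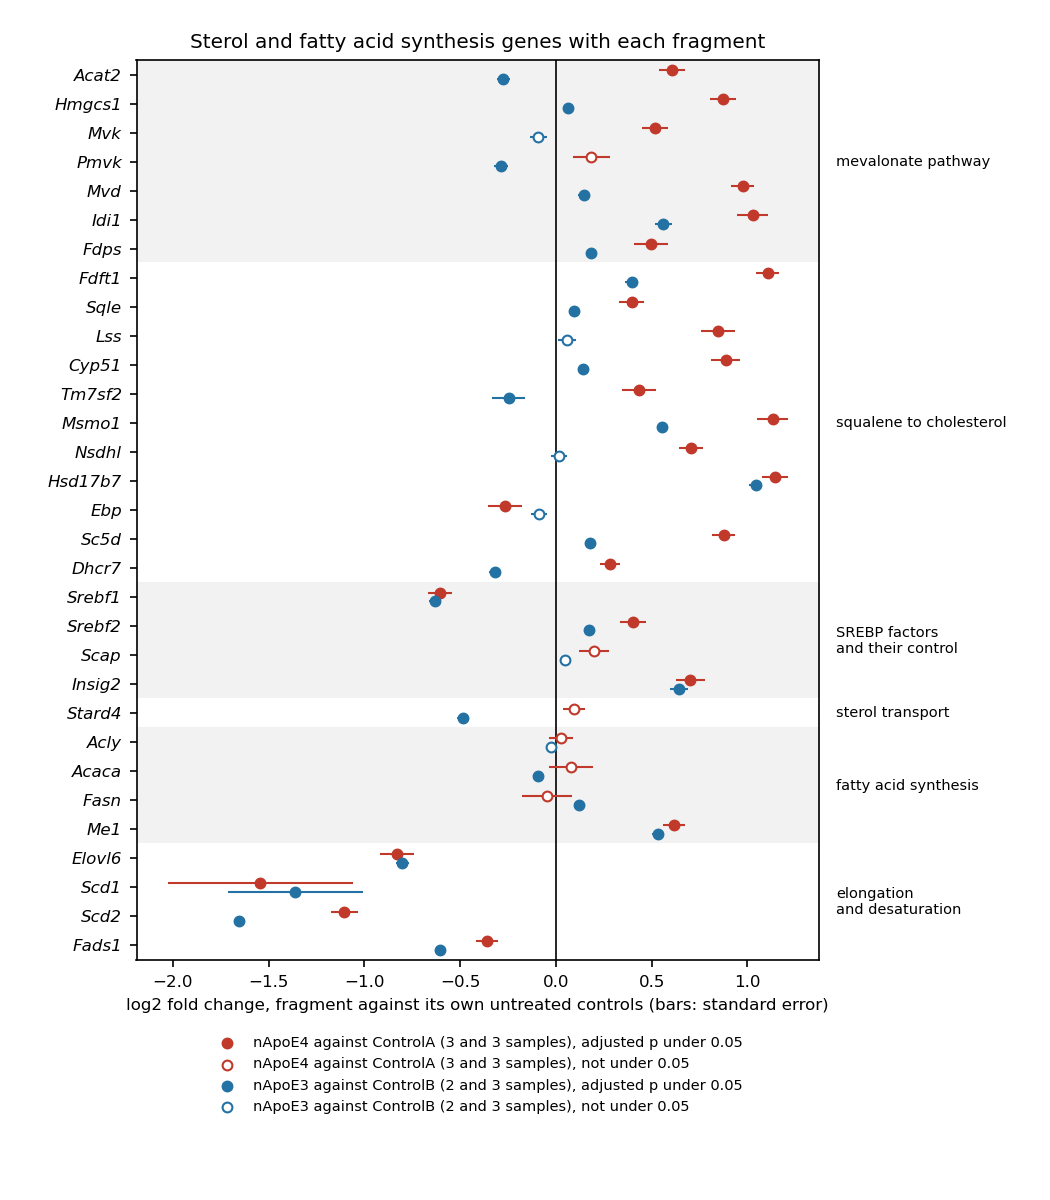
Log2 fold change of the 31 tested members with each fragment against its own controls (points) and standard errors (bars), filled where the adjusted p was under 0.05, grouped by role. The nApoE4 points (red) of 17 of the 18 sterol enzymes lie above 0 and all 4 points for elongation and desaturation lie below 0 with both fragments. The small nApoE3 values (blue) of Hmgcs1, Nsdhl, Sqle, Scap, Fasn and Lss turned negative when libraries were scaled by their totals alone.

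In the mevalonate pathway, 6 of 7 enzymes rose with nApoE4 and none fell, and with nApoE3 4 rose and 2 fell. Hmgcs1, the synthase that makes HMG-CoA, read 174, 181 and 173 CPM in ControlA and 343, 300.2 and 319 CPM in ApoE4. The ControlB samples read 164, 162 and 160.5 CPM and the ApoE3 samples 171 and 169.6 CPM. All 3 nApoE4 samples were thus far above every other sample, and the rise was 1.83-fold (log2 0.87 ± 0.07 SE, adjusted p = 3e-06). With nApoE3 the log2 change was 0.06 ± 0.02 (adjusted p = 0.033), a call that was lost on leaving out any of ControlB 2, ControlB 3, ApoE3 1 or ApoE3 2 and whose direction turned to -0.07 with library totals alone.

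Mvd, which decarboxylates mevalonate diphosphate to the first isoprenoid unit, was also highest in ApoE4. Its level was 71.0, 75 and 68.1 CPM in ControlA and 144, 136 and 139 CPM in ApoE4. In ControlB it was 54.6, 53.1 and 54.5 CPM, and in ApoE3 60 and 60.1 CPM. The rise was 1.97-fold with nApoE4 (log2 0.97 ± 0.06, adjusted p = 6.2e-07) and 1.11-fold with nApoE3 (0.14 ± 0.03, adjusted p = 0.0011), and neither pair of groups overlapped.

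Idi1, the isomerase that interconverts the isoprenoid units, rose with both fragments. It read 15.1, 14.9 and 15.2 CPM in ControlA and 33.4, 27.4 and 31.1 CPM in ApoE4, a rise of 2.04-fold (log2 1.03 ± 0.08, adjusted p = 3.6e-06). It read 15.8, 16.7 and 15.5 CPM in ControlB and 23.7 CPM in both ApoE3 samples, a rise of 1.47-fold (log2 0.56 ± 0.04, adjusted p = 2.5e-07). The controls of the 2 experiments were not called different for this gene (log2 difference, ControlB minus ControlA, 0.07, 95% interval -0.06 to 0.20). The treated levels still came from separate experiments, so a gap between them cannot be assigned to the fragment.

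The remaining enzymes differed in size. Acat2, the thiolase that condenses acetyl-CoA, read 32.2, 33.7 and 31.7 CPM in ControlA, 52.3, 50.7 and 45.2 in ApoE4, 45.9, 46 and 44.7 in ControlB, and 38.1 and 37.5 in ApoE3. It rose with nApoE4 (log2 0.61 ± 0.07, adjusted p = 4.5e-05) and fell with nApoE3 (-0.28 ± 0.03, adjusted p = 1.1e-05). Mevalonate kinase, Mvk, read 24.1, 24.7 and 21.5 CPM in ControlA, 33.9, 33.9 and 32.3 in ApoE4, 20.5, 19.5 and 19.7 in ControlB, and 18.8 and 18.7 in ApoE3. Its rise with nApoE4 was 0.52 ± 0.07 (log2, adjusted p = 0.00014), and its value with nApoE3, -0.09, did not pass (adjusted p = 0.080). Pmvk, the next kinase, was the one mevalonate enzyme that did not pass with nApoE4.

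ControlA 2 decided that Pmvk value. Pmvk read 44.7, 53.1 and 40.3 CPM in ControlA and 53.0, 49.3 and 54.1 CPM in ApoE4, so that the groups overlapped through ControlA 2 (log2 0.19, adjusted p = 0.12). Without ControlA 2 the log2 change was 0.30 (adjusted p = 0.0018). In ControlB it read 38.6, 37.8 and 39.0 CPM and in ApoE3 30.9 and 32.3 CPM, a fall (-0.29 ± 0.04, adjusted p = 1.9e-05). Fdps, which makes farnesyl diphosphate, rose with both fragments, by 0.50 ± 0.09 with nApoE4 (adjusted p = 0.0011) and by 0.18 ± 0.03 with nApoE3 (adjusted p = 0.00013).

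From squalene to cholesterol, 10 of 11 enzymes rose with nApoE4 and 1 fell, and with nApoE3 6 rose and 2 fell. Fdft1, the squalene synthase that commits farnesyl diphosphate to sterols, read 59.3, 62.5 and 59.0 CPM in ControlA and 135, 125 and 127 CPM in ApoE4 (2.15-fold, log2 1.10 ± 0.06, adjusted p = 2.2e-07). In ControlB it read 49.7, 46.7 and 48.6 CPM and in ApoE3 64.0 and 63.8 CPM (1.32-fold, log2 0.40 ± 0.03, adjusted p = 4.1e-07). Fdft1 overlaps the cathepsin gene Ctsb, on the opposite strand, by 774 bases, and whether the counting used strand is not given in the sources used here. Ctsb had 124946 to 170468 counts against 2524 to 5800 for Fdft1. It did not pass with nApoE4 (log2 -0.01, adjusted p = 0.96) and rose with nApoE3 (0.28, adjusted p = 2.9e-08), and its part in the Fdft1 value was not tested.

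Hsd17b7, a ketoreductase of sterol demethylation, rose by the largest factor among the sterol members with nApoE4 and was the 1 member that rose over 2-fold with nApoE3. It read 44.1, 41.3 and 41.3 CPM in ControlA, 101, 88.4 and 89.9 in ApoE4, 36.4, 34.4 and 34.4 in ControlB, and 71.6 and 73.6 in ApoE3. The rise was 2.21-fold with nApoE4 (log2 1.14 ± 0.07, adjusted p = 5e-07) and 2.06-fold with nApoE3 (1.04 ± 0.03, adjusted p = 6.3e-11). Every treated sample stood above every control of either experiment.

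Msmo1, the methylsterol oxidase of the same demethylation sequence, read 129, 146 and 121 CPM in ControlA and 299, 273 and 292 in ApoE4, a 2.19-fold rise (log2 1.13 ± 0.08, adjusted p = 1.5e-06). In ControlB it read 139.5, 138 and 139 CPM and in ApoE3 200.1 and 209.5 CPM, a 1.47-fold rise (0.55 ± 0.03, adjusted p = 1.6e-09). Nsdhl, the dehydrogenase that acts after it, read 29.0, 32.2 and 30.2 CPM in ControlA, 52.5, 47.9 and 48.1 in ApoE4, 32.3, 30.4 and 32.3 in ControlB, and 32.0 and 32.3 in ApoE3. It rose with nApoE4 (log2 0.71 ± 0.06, adjusted p = 1.1e-05), where every sample stood above the 29.0 to 32.3 CPM of the other 8, and did not pass with nApoE3 (0.02, adjusted p = 0.75).

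Lss, which closes the ring of lanosterol, rose with nApoE4 from 21.0, 19.6 and 24.1 CPM in ControlA to 40.5, 39.8 and 35.5 CPM (log2 0.85 ± 0.09, adjusted p = 2.7e-05). In ControlB it read 14.7, 15 and 14.8 CPM and in ApoE3 15.2 and 15.8 CPM, and the change did not pass (0.06, adjusted p = 0.28; -0.07 with library totals alone). The next enzyme, the demethylase Cyp51, showed how far the experiments differed before treatment. It read 101, 112 and 104 CPM in ControlA and 209, 178 and 198 in ApoE4 (log2 0.89 ± 0.07, adjusted p = 5.8e-06), but 190.1, 191 and 192 in ControlB and 210.1 and 213 in ApoE3 (0.14 ± 0.02, adjusted p = 0.00011). The untreated ControlB level of Cyp51 thus lay within the range of the nApoE4-treated samples.

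Sc5d, a sterol desaturase, read 62.4, 66.2 and 63.3 CPM in ControlA, 124, 112 and 115 in ApoE4, 82.9, 81.9 and 81.4 in ControlB, and 92.5 and 94.3 in ApoE3. It rose by 0.88 ± 0.06 with nApoE4 (log2, adjusted p = 1.4e-06) and by 0.18 ± 0.03 with nApoE3 (adjusted p = 7.5e-05). Sqle, squalene epoxidase and a rate-limiting step of the pathway, rose less. It read 180.1, 186 and 173 CPM in ControlA, 249.9, 220.1 and 237 in ApoE4, 193, 190.2 and 193 in ControlB, and 205 and 206 in ApoE3. Its log2 changes were 0.40 ± 0.07 with nApoE4 (adjusted p = 0.00066) and 0.09 ± 0.02 with nApoE3 (adjusted p = 0.0025), the latter turning to -0.04 with library totals alone.

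A pair of reductases went opposite ways with the fragments. Dhcr7, which makes cholesterol in the last step of one branch, read 37.7, 37.8 and 38.8 CPM in ControlA and 46.9, 46 and 45.7 in ApoE4, a rise (log2 0.28 ± 0.05, adjusted p = 0.0012). It read 60.3, 58.6 and 61.1 CPM in ControlB and 48.7 and 48.1 in ApoE3, a fall (-0.32 ± 0.03, adjusted p = 2.4e-06). The 2 treated groups therefore ended at similar levels from controls on either side of them.

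Tm7sf2, a sterol reductase, read 5.54, 5.73 and 5.36 CPM in ControlA, 7.65, 7.17 and 7.56 in ApoE4, 6.06, 6.35 and 6.40 in ControlB, and 5.60 and 5.01 in ApoE3. It rose with nApoE4 (log2 0.43 ± 0.09, adjusted p = 0.0022). Its exons overlap those of Vps51 on the same strand by 532 bases in GENCODE, while in RefSeq the 2 gene spans overlap by 9 bases. Which annotation the counting used is not given in the sources used here. Vps51 had 2707 to 4452 counts against 236 to 428 for Tm7sf2, and its part in the Tm7sf2 value was not tested. Vps51 passed with neither fragment (log2 0.06, adjusted p = 0.40, and -0.03, adjusted p = 0.48). The Tm7sf2 fall with nApoE3 (-0.25 ± 0.09, adjusted p = 0.024) was lost on leaving out ControlB 2, ControlB 3 or ApoE3 2 (adjusted p 0.052, 0.060 and 0.19). Ebp, a sterol isomerase, was the 1 sterol enzyme that fell with nApoE4 (-0.27 ± 0.09, adjusted p = 0.025), and that call was lost on leaving out ApoE4 1, 2 or 3 (adjusted p 0.053, 0.057 and 0.087). With nApoE3 its value was -0.09 (adjusted p = 0.069).

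Summed over the enzymes, the mevalonate group read 511 to 591 CPM in ControlA, 849 to 934 in ApoE4, 533 to 548 in ControlB and 574 to 579.7 in ApoE3. The enzymes from squalene to cholesterol summed to 689 to 744 CPM in ControlA and 1162 to 1289.8 in ApoE4, and to 817 to 831 in ControlB and 969.5 to 985 in ApoE3. These sums weight the abundant enzymes most and were not tested. The nApoE4 sums lay above those of the other 8 samples in both groups.

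**Figure D2:**
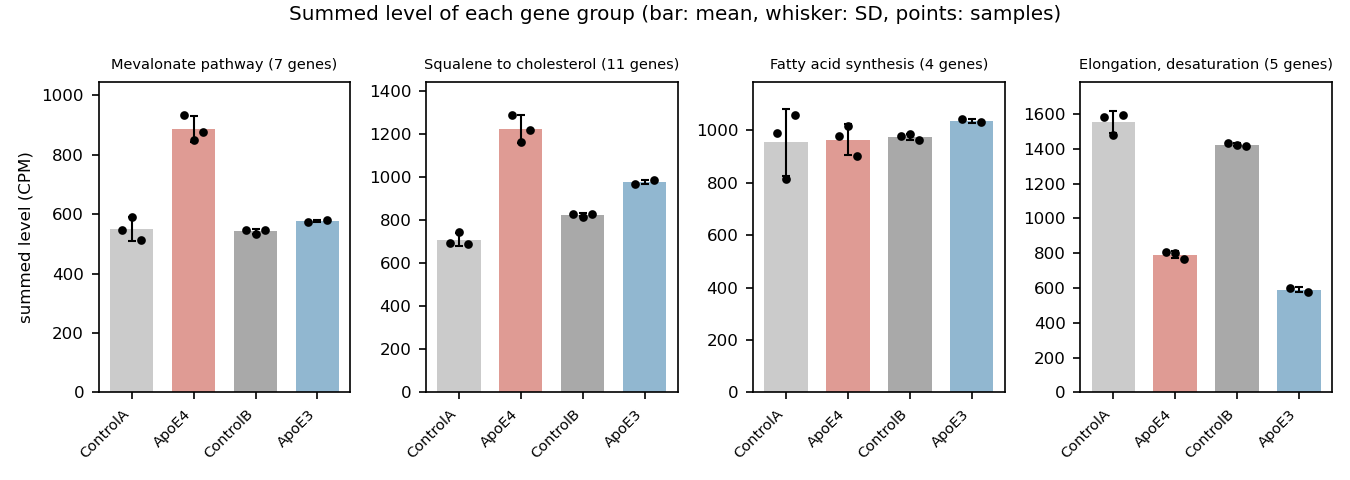
Summed level, in CPM, of 4 groups of members in each of the 4 sample groups; bars are means, whiskers SD and points samples (n = 3, 3, 3 and 2). The 2 sterol groups are highest in ApoE4 (849 to 934 and 1162 to 1289.8 CPM), and fatty acid synthesis overlaps between ControlA and ApoE4. The sum for elongation and desaturation, most of it Scd2, is lower with both fragments than in either set of controls. Elovl6 and Fads1 alone are not lower in ApoE3 than in every ControlA sample.

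The factors that control these genes did not move together. Srebf2, the sterol-directed factor, read 359, 330.1 and 370.1 CPM in ControlA and 470.3, 481 and 445 in ApoE4, a rise (log2 0.40 ± 0.07, adjusted p = 0.00077). It read 259, 265 and 257 CPM in ControlB and 299 and 290.3 in ApoE3, a smaller rise (0.17 ± 0.02, adjusted p = 3.3e-05). Srebf1, the fatty acid-directed factor, fell with both. It read 207, 197 and 207 CPM in ControlA, 132, 141 and 126 in ApoE4, 136, 136 and 135 in ControlB, and 90.8 and 84.9 in ApoE3. The log2 changes were -0.61 ± 0.06 (adjusted p = 2.6e-05) and -0.63 ± 0.03 (adjusted p = 2e-09), and no treated sample overlapped with its own controls. Its gene overlaps Rai1 by 114 bases on the opposite strand, and Rai1 had 3516 to 5885 counts against 4796 to 9652 for Srebf1. Rai1 did not pass with nApoE4 (log2 0.07, adjusted p = 0.72) and fell with nApoE3 (-0.20, adjusted p = 0.00059). Its part in the Srebf1 value was not tested.

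Insig2, one of the 2 proteins that hold the SREBP complex back, rose with both fragments. It read 26.2, 29.1 and 29.6 CPM in ControlA, 42.4, 46.3 and 48.9 in ApoE4, 23.4, 26.1 and 24.7 in ControlB, and 37.8 and 39.6 in ApoE3. The rise was 1.63-fold (log2 0.70 ± 0.07, adjusted p = 3.2e-05) and 1.56-fold (0.64 ± 0.05, adjusted p = 1.1e-07). Scap, the escort, read 66.6, 58.3 and 68.1 CPM in ControlA, 71.7, 79.3 and 69.9 in ApoE4, 59.3, 59.6 and 58.9 in ControlB, and 62.8 and 60.3 in ApoE3. It did not pass with nApoE4 (0.20, 95% interval 0.02 to 0.38, adjusted p = 0.052) or nApoE3 (0.05, -0.02 to 0.12, adjusted p = 0.17). Without ControlA 3 the nApoE4 value was 0.24 (adjusted p = 0.035).

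Insig1, the other such protein and itself a well known SREBP target, had 0 counts in each of the 11 samples. For a count of 0 a floor of 3 counts was used, which is 0.0430 to 0.0755 CPM depending on the sample. This floor covers counting error only and not reads set aside by the counting step. The gene lies at chr5:28071412-28078662 on the plus strand of GRCm38.p6, and 100% of its span is covered by that of Gm35223, a long non-coding RNA with 15 to 59 counts. How the counting step treated reads that fall on more than one gene is not given in the sources used here, and between 3.24% and 3.56% of each library was set aside as ambiguous. The part of the overlap in the 0 counts was not tested, so this 0 says nothing about whether the cells express Insig1.

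Stard4, a soluble carrier of sterol between membranes, read 66.1, 63.4 and 66.1 CPM in ControlA, 72.4, 66.1 and 69.6 in ApoE4, 82.3, 79.0 and 79.5 in ControlB, and 57.3 and 57.9 in ApoE3. It did not pass with nApoE4 (log2 0.09, 95% interval -0.04 to 0.22, adjusted p = 0.19) and fell with nApoE3 (-0.49 ± 0.03, adjusted p = 2.7e-08).

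Of the 4 genes of fatty acid synthesis, 3 did not pass with nApoE4. Acly, which makes cytosolic acetyl-CoA from citrate, ranged from 279 to 311 CPM over all 11 samples and passed with neither fragment (log2 0.03, 95% interval -0.11 to 0.17, and -0.03, -0.08 to 0.02). Acaca, the carboxylase that makes malonyl-CoA, had a value of 0.08 (-0.18 to 0.33) with nApoE4 and fell slightly with nApoE3 (-0.10 ± 0.03, adjusted p = 0.0049). Me1, the malic enzyme that supplies NADPH, rose with both, by 0.62 ± 0.06 (adjusted p = 1.2e-05) and 0.53 ± 0.03 (adjusted p = 8.8e-09).

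Fasn, the fatty acid synthase, was spread widely in ControlA. It read 548, 410.4 and 599 CPM there and 509.7, 540.1 and 452 CPM in ApoE4, so that the groups overlapped (log2 -0.05, 95% interval -0.34 to 0.25, adjusted p = 0.78). Without ControlA 2, the lowest sample, the value was -0.20 (adjusted p = 0.039). The ControlB values were 508, 514 and 498 CPM and the ApoE3 values 557 and 549 CPM, a small rise (0.12 ± 0.02, adjusted p = 0.00024) that turned to -0.01 with library totals alone. ControlA 2 was likewise the lowest ControlA sample for Acaca (82.5 CPM, against 107 and 114) and the highest for Fdps (209 CPM, against 186 and 162).

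The 4 members of elongation and desaturation that could be tested fell with both fragments. Elovl6 is the only elongase among them, and elongation genes outside the members went both ways. The mean of Hacd2 went from 23.3 CPM in ControlA to 47.1 in ApoE4, and from 28.9 in ControlB to 43.4 in ApoE3. That of Elovl7 went from 23.1 to 19.8 CPM and from 24.7 to 11.5 CPM. Scd2, a stearoyl-CoA desaturase that makes monounsaturated fatty acids, had the highest level of any member per kilobase of exon, 237 CPM per kb in ControlA, where the next was Acly at 56.6. It read 1334, 1226 and 1333 CPM in ControlA and 618, 602 and 582 CPM in ApoE4, a fall of 2.15-fold (log2 -1.11 ± 0.07, adjusted p = 7e-07). In ControlB it read 1008, 999 and 993 CPM and in ApoE3 330.3 and 308 CPM, a fall of 3.15-fold (-1.65 ± 0.03, adjusted p = 1.2e-13). Treated and control samples lay far apart in both experiments.

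Its paralog Scd1 was barely present, with 3 to 34 counts per sample. It read 0.399, 0.268 and 0.621 CPM in ControlA, 0.117, 0.0722 and 0.252 in ApoE4, 0.482, 0.388 and 0.550 in ControlB, and 0.137 and 0.230 in ApoE3. The log2 changes were -1.54 ± 0.48 (adjusted p = 0.021) and -1.36 ± 0.35 (adjusted p = 0.0044). The first was lost on leaving out ControlA 3, ApoE4 1 or ApoE4 2 (adjusted p 0.075, 0.071 and 0.077) and the second on leaving out ApoE3 1 (0.055). Because Scd1 and Scd2 are near in sequence, reads that fit both could be split between them or set aside, and at these counts the Scd1 value is uncertain. Scd1 passed the filter on low counts mainly through its controls, so its fall adds no separate support. With at least 10 counts required in every sample Scd1 was not tested, and 5 members fell with nApoE4 and 10 with nApoE3.

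Elovl6, which elongates palmitate to stearate, read 35.2, 31.4 and 38.4 CPM in ControlA and 21.3, 19.0 and 18.5 in ApoE4 (log2 -0.83 ± 0.09, adjusted p = 3.4e-05). It read 87.8, 89.1 and 83.7 CPM in ControlB and 49.7 and 50.4 in ApoE3 (-0.80 ± 0.03, adjusted p = 6.2e-10). The ApoE3 samples thus stayed above the untreated ControlA samples while falling by a like factor from their own controls. Fads1, a desaturase of polyunsaturated fatty acids, read 215, 222 and 224 CPM in ControlA, 168, 178 and 167 in ApoE4, 336, 332 and 339 in ControlB, and 222 and 221 in ApoE3. Its falls were -0.36 ± 0.06 (adjusted p = 0.00047) and -0.61 ± 0.02 (adjusted p = 1.2e-10). Fads2, its neighbour in the same pathway, was at or under 2 counts in every sample, and no change can be given.

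In sum over these 5 genes, the level was 1479 to 1595 CPM in ControlA and 768 to 808 in ApoE4, and 1416 to 1432 in ControlB and 579.9 to 602 in ApoE3. Most of this sum was Scd2. Fatty acid synthesis summed to 813 to 1059 CPM in ControlA, 902 to 1015 in ApoE4, 962 to 984 in ControlB and 1032 to 1043 in ApoE3.

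**Figure D3:**
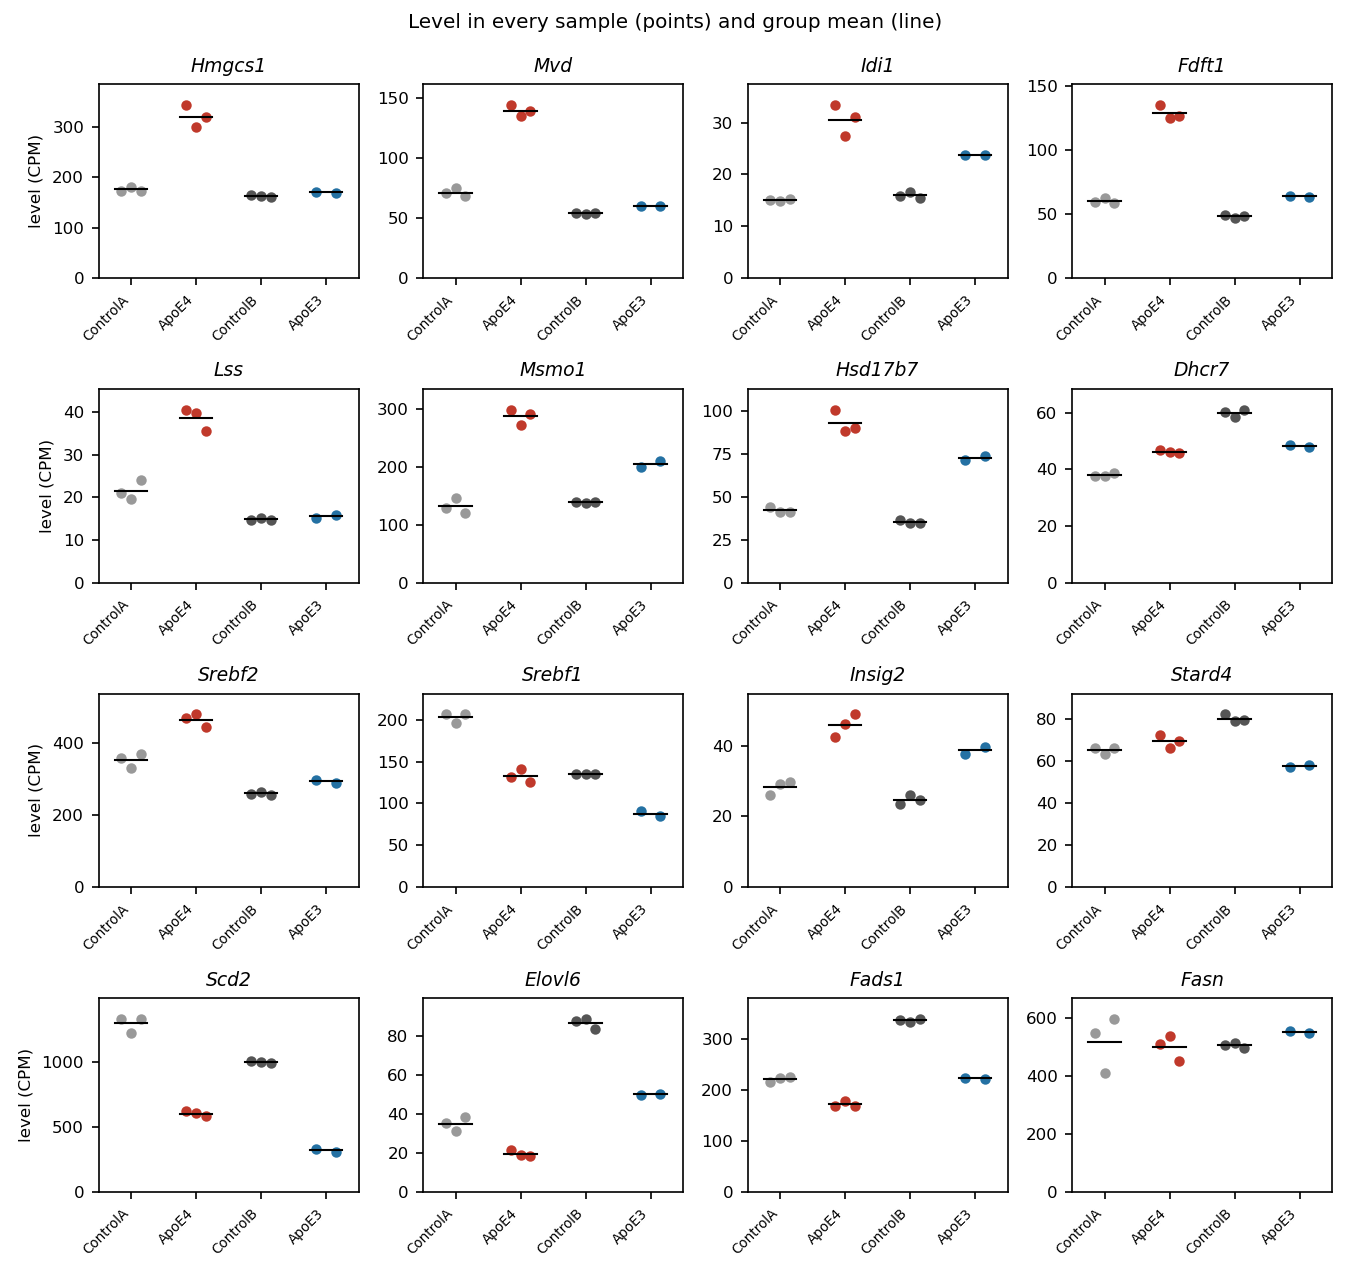
Level in CPM of 16 members in every sample (points) with the group mean (line), each vertical axis starting at 0. Hmgcs1, Mvd and Lss are high in the 3 ApoE4 samples. In ApoE3 they lie within the range of the 6 control samples of both experiments, but above every ControlB sample. The small rise of Mvd in ApoE3 was called. That of Hmgcs1 was also called but turned negative with library totals alone, and that of Lss was not called. Fdft1, Hsd17b7 and Insig2 are high with both fragments, and Scd2 and Elovl6 are low with both relative to their own controls.

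Whether the responses differed was tested directly, as the nApoE4 change minus the nApoE3 change in 1 fit of all 11 samples. Of the 31 members, 19 had a higher response with nApoE4 and none a lower one, where 28.3% of 15287 genes were called, 14.4% higher and 13.9% lower. The members' median difference was 0.46 (log2), against 0.0025 for all genes. Among the 18 sterol enzymes 15 were called higher, with a median of 0.63, and among the 8 fatty acid enzymes 2. The difference cannot be assigned to the fragment, since each was given in its own experiment. Without ControlA 2 the count was 20 higher and 1 lower, as Fdps was then called higher (0.40, adjusted p = 0.0010) and Fasn lower (-0.32, adjusted p = 0.0074).

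The largest differences were those of Acat2 (0.87 ± 0.08 SE, 95% interval 0.69 to 1.05, adjusted p = 5.7e-06), Mvd (0.82 ± 0.07, 0.67 to 0.97, adjusted p = 2.3e-06) and Hmgcs1 (0.80 ± 0.07, 0.64 to 0.96, adjusted p = 5.9e-06). Lss followed at 0.78, Cyp51 at 0.73, Fdft1 at 0.70, Nsdhl and Sc5d at 0.68 and Tm7sf2 at 0.67. Mvk differed by 0.60, Dhcr7 by 0.59, Stard4 by 0.57, Msmo1 by 0.56, and Idi1 and Pmvk by 0.46. For Scd2 the positive difference of 0.54 ± 0.07 (adjusted p = 0.00013) stood for a smaller fall with nApoE4, as did that of Fads1 (0.23 ± 0.06, adjusted p = 0.012).

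Some of the smaller differences rested on few samples. Those of Sqle (0.29, adjusted p = 0.012) and Fads1 were lost without ApoE3 1 (adjusted p 0.055 and 0.055) and without ApoE3 2 (0.050 and 0.061), and that of Pmvk (adjusted p = 0.012) without ApoE3 1 (0.065). The difference of Srebf2, the smallest called (0.22, adjusted p = 0.046), was lost on leaving out ControlA 1, ApoE4 1, ApoE4 2 or any sample of ControlB or ApoE3, with adjusted p from 0.062 to 0.18.

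The remaining 12 members did not pass this test. For Hsd17b7 the difference was 0.09 (95% interval -0.09 to 0.27), for Insig2 0.05 (-0.16 to 0.26), for Srebf1 0.01 (-0.15 to 0.17), for Me1 0.07 (-0.07 to 0.22) and for Elovl6 -0.04 (-0.27 to 0.19). Each of these 5 genes had been called the same way in both fragment comparisons, and the intervals bound the difference but do not show that the responses were equal. Fdps had an interval of 0.06 to 0.54 (adjusted p = 0.064). The intervals of Scap, Ebp, Acly, Acaca and Fasn all held 0, and that of Scd1 ran from -1.61 to 1.21.

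**Figure D4:**
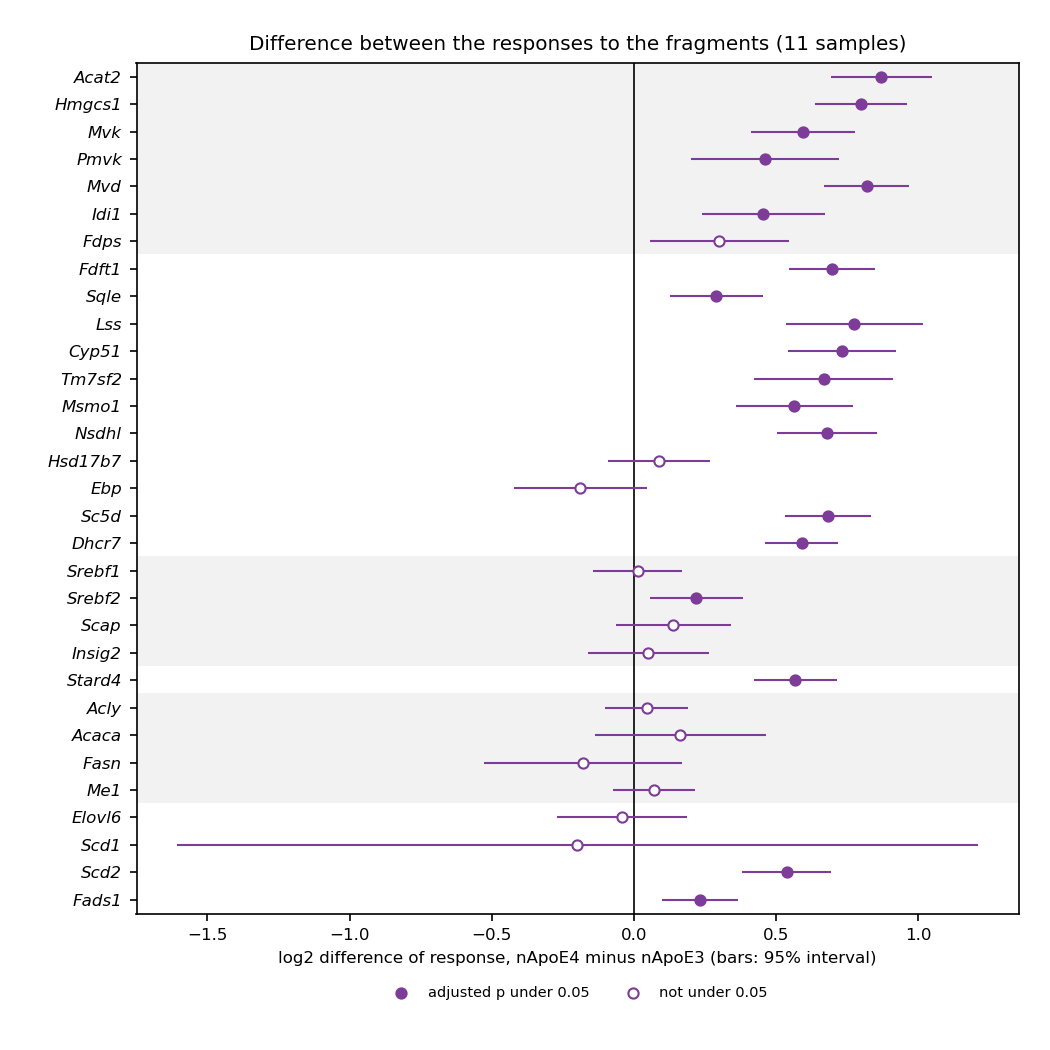
Difference of response for the 31 tested members (nApoE4 log2 fold change minus nApoE3 log2 fold change, 11 samples), with 95% intervals as bars and filled points where the adjusted p was under 0.05; shaded and plain bands mark, from the top, the mevalonate pathway, squalene to cholesterol, SREBP factors, sterol transport, fatty acid synthesis, and elongation and desaturation. All 19 filled points lie above 0, from 0.22 (Srebf2) to 0.87 (Acat2).

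The untreated samples of the 2 experiments already differed. Between ControlB and ControlA, 8 members were higher in ControlB, 12 lower and 11 not called, where 69.3% of 14249 genes were called, 34.4% higher and 34.9% lower. Elovl6 was 2.45-fold higher in ControlB (log2 1.29 ± 0.07, adjusted p = 2.7e-06), Cyp51 1.78-fold (0.83 ± 0.05, adjusted p = 3e-06) and Me1 1.68-fold (0.75 ± 0.05, adjusted p = 3.7e-06). Dhcr7, Fads1, Acat2, Sc5d and Stard4 were higher by log2 values of 0.64, 0.59, 0.47, 0.34 and 0.28. Srebf1 was lower in ControlB (-0.60 ± 0.04, adjusted p = 7.8e-06), as were Lss (-0.55), Srebf2 (-0.46), Mvd (-0.42), Scd2 (-0.39), Fdft1 (-0.33), Hsd17b7 and Pmvk (both -0.28), Mvk (-0.25), Ebp (-0.23), Insig2 (-0.21) and Hmgcs1 (-0.13). The calls of Pmvk, Ebp, Insig2 and Hmgcs1 were each lost on leaving out at least 1 library, among them ControlB 1 for all 4, and without ControlA 2 the count was 12 higher and 15 lower. In that fit Fdps (0.23), Msmo1 (0.14), Acaca (0.13) and Sqle (0.10) were also called higher in ControlB, and Scap (-0.20), Fasn (-0.19) and Acly (-0.11) lower, with adjusted p from 0.00019 (Scap) to 0.011 (Sqle).

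Of the 19 members called in the difference of response, 6 had a higher level in ControlB than in ControlA (Acat2, Cyp51, Dhcr7, Sc5d, Fads1 and Stard4) and 8 a lower one (Lss, Mvd, Fdft1, Mvk, Pmvk, Hmgcs1, Srebf2 and Scd2). The other 5, Idi1, Msmo1, Nsdhl, Sqle and Tm7sf2, did not pass the test between controls, though Msmo1 and Sqle did without ControlA 2. The part of the starting level in the difference of response was not tested.

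Other genes of these pathways were taken from fixed lists, and their counts are to be read against the 57.2% of all genes called with nApoE4 and the 67.7% called with nApoE3. Of 9 further sterol pathway genes tested, 4 rose and 3 fell with nApoE4, and 6 rose and 2 fell with nApoE3. Por, which donates electrons to Cyp51 and Sqle, fell with nApoE4 (-0.46, adjusted p = 0.00034) and rose with nApoE3 (0.48, adjusted p = 1.1e-08). Cyb5b rose with nApoE4 (0.32), where Tmem97 (-0.34) and Acat1 (-0.26) fell, and with nApoE3 Acat1 (-0.30) and Lbr (-0.13) fell.

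Of 10 genes that process SREBPs or degrade sterol-regulated proteins, 7 rose and 1 fell with nApoE4, and 6 rose and 2 fell with nApoE3. The ubiquitin ligase gene Rnf145 rose by 0.53 (adjusted p = 4.4e-05) and 1.00 (adjusted p = 3.9e-11). Erlin1 rose with nApoE4, by 0.40, and Ubxn8 and Faf2 with nApoE3, by 0.42 and 0.37. Mbtps1, the first protease that cleaves SREBPs, fell with both (-0.32, adjusted p = 0.0037, and -0.17, adjusted p = 3.5e-05), and Mbtps2, the second, fell with nApoE3 (-0.15, adjusted p = 0.0031).

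Among the other fatty acid genes, 11 of 25 tested rose and 9 fell with nApoE4, and 10 of 29 rose and 15 fell with nApoE3. Acsl1, which activates fatty acids to their CoA esters, rose by 1.60 ± 0.06 (adjusted p = 2.3e-08) and 1.58 ± 0.02 (adjusted p = 5.5e-14), from 136 to 140.3 CPM to 399 to 431 CPM and from 110.1 to 115 CPM to 337 and 338 CPM. Lpin1, the phosphatase that makes diacylglycerol, fell by more than any member, from 29.5 to 33 CPM to 3.45 to 3.90 CPM with nApoE4 (-3.07 ± 0.09, adjusted p = 3.1e-09) and from 19.8 to 20.9 CPM to 1.48 and 1.72 CPM with nApoE3 (-3.67 ± 0.08, adjusted p = 7.1e-13). Dgat2, which completes triglyceride, rose with nApoE3 (1.40 ± 0.05, adjusted p = 4.9e-11) and fell with nApoE4 (-0.22, adjusted p = 0.015), with a difference of response of -1.63 ± 0.09 (adjusted p = 6.5e-08). Hacd2 (1.02) and Acsl5 (0.83) rose and Fads6 (-0.86) and Acacb (-0.75) fell with nApoE4, and Acss2 (0.84) rose and Fads6 (-1.23) and Elovl7 (-1.11) fell with nApoE3.

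Liver X receptors (LXRs) sense oxysterols and drive cholesterol efflux genes and Srebf1. Of 6 LXR factors and targets, 2 rose and 2 fell with each fragment. Nr1h3, a gene for an LXR, rose by 0.46 (adjusted p = 0.00018) and 0.71 (adjusted p = 9e-10). The efflux transporter Abcg1 fell by 1.04 on the log2 scale (adjusted p = 1.8e-06) with nApoE4 and by 0.62 (adjusted p = 1.9e-08) with nApoE3, and Mylip, a ubiquitin ligase gene, by 0.49 and 0.46. Lpcat3 rose with nApoE4 (0.25) and Abca1 with nApoE3 (0.68, adjusted p = 1.6e-10).

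Of 7 oxysterol and cholesteryl ester enzymes tested, 2 rose and 5 fell with nApoE4, and 1 rose and 4 fell with nApoE3. Soat2, which esterifies cholesterol, read 50.2, 49.9 and 49.1 CPM in ControlA and 117, 130.4 and 119 in ApoE4, a rise (log2 1.30 ± 0.06, adjusted p = 1e-07). It read 26.0, 27.8 and 26.9 CPM in ControlB and 25.4 and 27.7 in ApoE3, with no call (-0.02, adjusted p = 0.69), and the difference of response was 1.31 ± 0.08 (adjusted p = 1.9e-07). Nceh1, a cholesteryl ester hydrolase, fell by 1.17 on the log2 scale with each fragment (adjusted p = 3.7e-07 and 7.4e-13). Cyp27a1, which makes an oxysterol in the mitochondrion, fell with both (-1.13, adjusted p = 8.7e-08, and -0.99, adjusted p = 7e-10), as did Hsd3b7 (-0.97 and -0.51).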

How the data were processed

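RNA-seq was performed on 11 BV2 samples in 4 groups, assigned from the labels. Per the study's methods and the submitters' notes, the authors trimmed single-end reads with Trim Galore 0.5.0, assessed them with FastQC 0.11.8, mapped them to GRCm38.p6 with HISAT2 2.1.0 and deposited whole-number counts per gene made with HTSeq 0.11.0. The annotation, strand setting and overlap mode are not given in the sources used here. Rows that named no gene were left out; genes held 76.0% to 77.7% of each library's reads, and 11.7% to 13.2% of reads had no unique alignment.

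Counts were filtered with filterByExpr, scaled by the trimmed mean of M-values (TMM) and tested with the edgeR 4.0.16 quasi-likelihood F test in R 4.3.3, 2 groups at a time, with Benjamini-Hochberg adjustment over all genes tested. The difference of response was an interaction term over all 11 samples. Standard errors were approximated from the F statistic. CPM values were scaled over all 11 samples. A floor of 3 counts covers counting error only. Gene positions and promoter windows were from RefSeq (GRCm38.p6), and exon lengths from GENCODE M21. Alternatives were DESeq2 1.42.0, other scalings and filters, a replicate block, 1 fit of all samples and leaving out each sample.

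The members and the other gene lists were chosen with earlier results of these data known. All 33 members are accounted for, and values in every sample are given for members changed by a log2 value of 1 or more, members called in the difference of response, and the 5 genes of SREBP control. From each other list at most 3 called genes per direction and fragment, the largest changes with a mean of at least 1 CPM, are named; some genes of these lists are not reported here. The 5 microglial markers under 1 CPM were named after their values were seen.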

Additional observations from a re-analysis of the deposited data

Results flagged for a closer look

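The response to nApoE4 minus that to nApoE3, an interaction term fitted over all 11 samples with edgeR, passed an adjusted p of 0.05 for 19 of the 31 members tested, where 28.3% of all genes passed. In the mevalonate pathway the log2 differences were 0.87 (Acat2), 0.82 (Mvd), 0.80 (Hmgcs1), 0.60 (Mvk), and 0.46 for both Pmvk and Idi1. From squalene to cholesterol they were 0.78 (Lss), 0.73 (Cyp51), 0.70 (Fdft1), 0.68 for both Nsdhl and Sc5d, 0.67 (Tm7sf2), 0.59 (Dhcr7), 0.56 (Msmo1) and 0.29 (Sqle). Srebf2 differed by 0.22 and Stard4 by 0.57. For Scd2 (0.54) and Fads1 (0.23) the positive value stood for a smaller fall with nApoE4. Fragment and experiment cannot be told apart in these values.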

How the results depend on the processing

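Of 124 results for single members (31 members in 4 comparisons), 86 kept their side of the threshold under every alternative run, some of the uncalled ones with a change of sign, and 38 crossed it or were called with the opposite sign under at least 1. With library totals as the only scaling, 6 members rose and 17 fell with nApoE3, the members' median log2 change was 0.34 with nApoE4, -0.082 with nApoE3, 0.51 in the difference and -0.0013 between controls, and the nApoE3 values of Fasn (-0.012), Hmgcs1 (-0.070), Nsdhl (-0.12), Scap (-0.082), Sqle (-0.038) and, uncalled in both, Lss (-0.073) changed sign; this scaling lowered the median of all genes with nApoE3 to -0.13. Without a filter beyond 1 count the medians were 0.41 with nApoE4, 0.040 with nApoE3 and 0.49 in the difference, and with at least 10 counts in every sample 0.47 with nApoE4 and 0.066 with nApoE3. The nApoE3 median was 0.058 with DESeq2 size factors in edgeR, 0.045 with DESeq2 itself and 0.056 in 1 fit of all samples, where 9 members rose; the cause was not tested.

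Samples with the same replicate number did not deviate together from their group means (r from -0.17 to -0.0079), so no pairing by number was seen in the counts. With 2 or 3 samples in a group, this cannot tell whether same-numbered samples were prepared together. With the replicate block, 1150 genes were higher and 1157 lower in the difference, instead of 2208 and 2123, and 15 members were higher and 0 lower, as Fads1, Pmvk, Sqle and Srebf2 no longer passed. It gave 19 members higher and 6 lower with nApoE4 and 13 and 10 with nApoE3, where Hmgcs1 and Tm7sf2 no longer passed, and between controls Hmgcs1 no longer passed.

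Leaving out 1 sample at a time gave 19 to 20 members higher and 4 to 7 lower with nApoE4 (median 0.40 to 0.45), 13 to 14 higher and 10 to 11 lower with nApoE3 (0.023 to 0.053), 15 to 20 higher and 0 to 1 lower in the difference (0.37 to 0.51), and 8 to 12 higher and 8 to 15 lower between controls (-0.11 to 0.051). Over all genes it gave 3584 to 4404 higher and 3558 to 4423 lower with nApoE4, 4448 to 4807 and 4666 to 5030 with nApoE3, 1547 to 2704 and 1493 to 2546 in the difference, and 4505 to 5466 and 4444 to 5522 between controls. Low counts limit Scd1 (3 to 34 counts) and Fads2. For Insig1, with 0 counts throughout, no change can be given, and the reason for the 0 counts was not tested.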
